A study of Mus musculus with 6 samples.

Results

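The urea cycle and glutamine genes described here were 9 genes of the deposited liver expression table, found by gene symbol, out of 28880 genes in the table and 16717 that passed the low-count filter. All 9 were present and all 9 passed. They were the mitochondrial enzymes Nags, Cps1 and Otc, the cytosolic enzymes Ass1 and Asl, the carriers Slc25a15 and Slc25a13, the glutaminase gene Gls2 and the glutamine synthetase gene Glul. Liver RNA was sequenced from 6 male wild-type C57BL/6J mice aged 6 to 8 weeks, with 3 libraries in each group. The ethanol mice were fasted for 12 h, given ethanol at 50% once by oral gavage at 6 g/kg, and sampled 24 h later, whereas the control mice were kept without ethanol. The sources used here do not state a fast or a vehicle gavage for the controls, so ethanol and fasting cannot be told apart in any result given here.

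In the liver, ammonia from amino acid breakdown is handled by 2 systems laid out along the lobule. Hepatocytes near the portal vein carry the urea cycle and liver glutaminase, which releases ammonia from glutamine inside the mitochondrion, and turn ammonia and aspartate nitrogen into urea. A narrow rim of hepatocytes around the central vein carries glutamine synthetase, which takes up the ammonia that escapes. The comparison therefore asked whether the periportal genes and the pericentral gene Glul moved together or apart after ethanol.

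Asl and Slc25a15 were higher in the ethanol livers. Argininosuccinate lyase (Asl) makes arginine, and the ornithine carrier encoded by Slc25a15 returns ornithine to the mitochondrion. Their fold changes were 5.33 and 2.33, and both genes were higher under every scaling, test and left-out library that was tried. The other 7 genes did not pass the test with the main scaling of the libraries, and the direction of most of them depended on that scaling. The mix of urea cycle transcripts therefore differed between the groups within each library, with Asl making up 12.95 to 15.1% of the summed FPKM of the 9 genes after ethanol and 3.48 to 3.70% in controls.

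FPKM is a read count divided by transcript length and by the size of the library, so it lets levels of different genes be set side by side. In the controls the order of mean FPKM was Ass1, Cps1, Glul, Gls2, Otc, Asl, Slc25a15, Slc25a13 and Nags. The libraries of neighbouring genes overlapped only between Glul and Gls2 and between Gls2 and Otc. In the ethanol livers the order was Ass1, Cps1, Asl, Glul, Slc25a15, Gls2, Otc, Slc25a13 and Nags, with overlap between Slc25a15 and Gls2 and between Gls2 and Otc. Asl thus moved from the sixth place to the third, above Glul, Gls2 and Otc. Over all genes of the table, Asl ranked 474th by mean FPKM in controls and 176th after ethanol, and Slc25a15 ranked 686th and 471st. The plot of FPKM by library shows these levels.

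**Figure D1:**
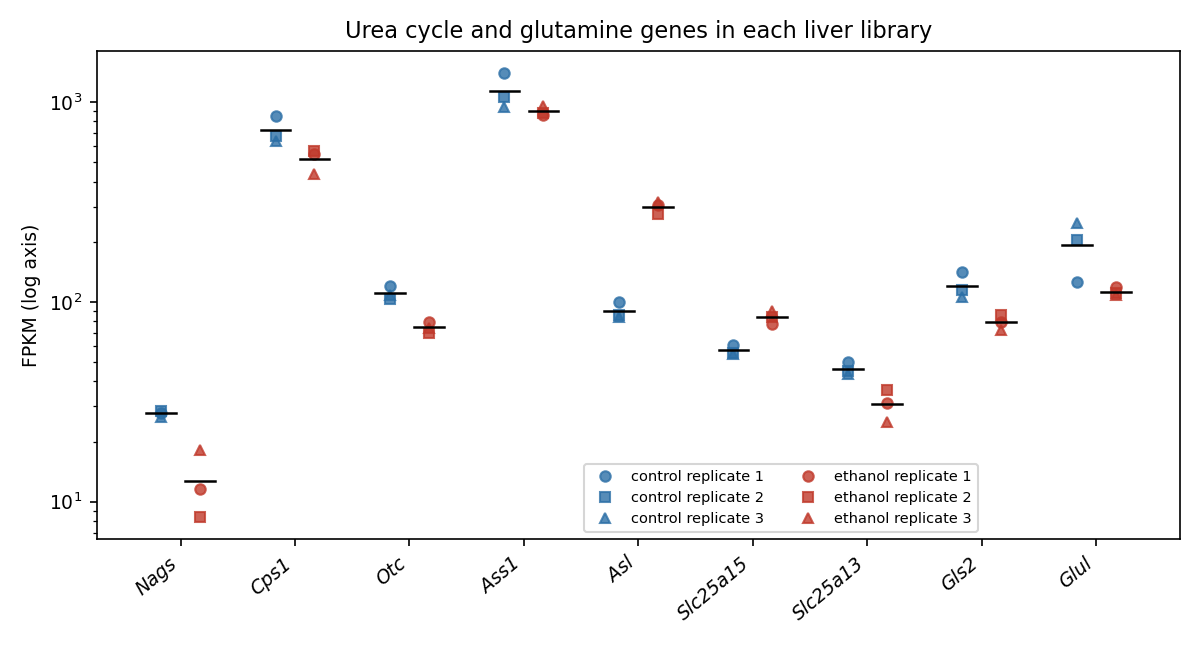
FPKM of the 9 genes on a log axis, with 1 symbol for each library, controls in blue and ethanol in red, and the group mean as a black line. For Asl and Slc25a15 every ethanol library lies above every control library, and for Ass1 the groups overlap.

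Library sizes were 60514417 to 74210869 counts, and a few abundant transcripts took more of the ethanol libraries. The 100 most counted genes held 51.4 to 57.6% of the counts in the ethanol libraries and 44.3 to 46.4% in the controls. The scaling factors of TMM (trimmed mean of M values), which balances most genes between libraries, were 0.768 to 0.836 for ethanol and 1.26 to 1.27 for controls. Without such scaling, 57.4% of all genes tested had FPKM values below the controls in every ethanol library and 9.45% had values above. A lower FPKM in the ethanol livers is therefore read below against that share, and fold changes are from edgeR's quasi-likelihood test with TMM scaling unless another scaling is named. Ethanol replicate 3 stood apart from the other ethanol libraries on the second principal component of all genes, at −88.7 against 33.4 and 51.7, a component that held 16.7% of the variance, so values without it are given where it changed the call of a named gene or a count of calls. The defining hepatocyte transcripts were present in all libraries, with summed FPKM of 9 markers at 46162 to 50218 after ethanol and 42073 to 48297 in controls, and 6 of those 9 were called higher and 0 lower with TMM scaling, against 2 higher and 2 lower with library size alone and 8 higher and 0 lower without ethanol replicate 3. Of all genes, 21.5% were called in each direction with TMM scaling, and 7.39% higher and 48.3% lower with library size alone. Without ethanol replicate 3, 24.7% of all genes were called higher and 27.4% lower. The skeletal muscle markers Acta1 and Ckm were at 0 or near 0 in every library.

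The mitochondrial entry into the cycle did not show a change that passed the test. N-acetylglutamate synthase (Nags) makes the obligate activator of carbamoyl phosphate synthetase, and its FPKM was 27.8, 28.6 and 26.6 in controls and 11.6, 8.36 and 18.1 after ethanol. The ethanol values were lower and more scattered, without overlap in FPKM but with overlap after TMM scaling. The log2 fold change was −0.44 ± 0.28 (SE, n = 3 per group, adjusted p = 0.243 in edgeR's test). Without ethanol replicate 3, the highest of the ethanol libraries for Nags, it was −0.80 and was called lower with adjusted p = 0.00473 in edgeR. Over the 16 fits, the Nags log2 fold change ran from −1.19 to −0.19, was negative in all of them and was called in 5.

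Carbamoyl phosphate synthetase 1 (Cps1), the rate-controlling ammonia-fixing enzyme, had FPKM of 848, 677 and 638 in controls and 547, 569 and 438 after ethanol. Ornithine transcarbamylase (Otc), which joins carbamoyl phosphate to ornithine, had FPKM of 120, 104 and 108 in controls and 79.1, 70.2 and 74.2 after ethanol. Both were below controls in FPKM in every ethanol library, as most genes were, and overlapped after TMM scaling. The log2 fold changes were 0.19 ± 0.15 (SE, adjusted p = 0.342) for Cps1 and 0.11 ± 0.12 (SE, adjusted p = 0.50) for Otc by edgeR with n = 3 per group. Their 95% intervals ran from −0.17 to 0.55 and from −0.18 to 0.39. With library size alone the same values were −0.47 and −0.57, so their direction flipped with the scaling.

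The pair of cytosolic enzymes differed. Ass1, which condenses citrulline with aspartate, had FPKM of 1399, 1060 and 948 in controls and 865, 883 and 956 after ethanol, and the groups overlapped. Its log2 fold change was 0.34 ± 0.17 (SE, n = 3 per group, adjusted p = 0.138 in edgeR), −0.33 with library size alone, and 0.51 without control replicate 1, where it was called higher with adjusted p = 0.0363 in edgeR. Asl, the next enzyme, had FPKM of 99.9, 85.9 and 83.6 in controls and 307, 275 and 316 after ethanol. All ethanol libraries were well above all controls, and the spread within each group was small beside the gap. The log2 fold change of Asl was 2.41 ± 0.14 (SE, n = 3 per group), with a 95% interval of 2.08 to 2.75 and adjusted p = 8.55e-05 in edgeR.

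Slc25a15, whose product exchanges cytosolic ornithine for citrulline across the inner mitochondrial membrane, had FPKM of 61.2, 55.7 and 55.1 in controls and 77.5, 83.7 and 89.6 after ethanol. The ethanol libraries again all lay above the controls. Its log2 fold change was 1.22 ± 0.12 (SE, n = 3 per group, adjusted p = 0.000394 in edgeR), with a 95% interval of 0.95 to 1.49. In FPKM, without any further scaling, the log2 ratio of the group means was 1.74 for Asl and 0.54 for Slc25a15.

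The aspartate-glutamate carrier encoded by Slc25a13 supplies the cytosolic aspartate used by argininosuccinate synthase. Its FPKM was 49.8, 45.2 and 43.6 in controls and 31.0, 36.1 and 25.1 after ethanol, lower in every ethanol library. After TMM scaling the groups overlapped, and the log2 fold change was 0.08 ± 0.13 (SE, n = 3 per group, adjusted p = 0.653 in edgeR), against −0.58 with library size alone. Of the pair of carriers, the ornithine carrier was therefore called higher and the aspartate-glutamate carrier was not called.

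The glutamine enzymes did not pass the test in either direction. Gls2 had FPKM of 142, 114 and 105 in controls and 79.0, 85.6 and 72.3 after ethanol. Glul had FPKM of 126, 203 and 248 in controls and 118, 111 and 109 after ethanol. The ethanol libraries were close to each other for Glul and the controls were scattered, with control replicate 1 nearest to the ethanol libraries. The log2 fold changes were 0.06 ± 0.13 (SE, adjusted p = 0.741) for Gls2 and −0.10 ± 0.23 (SE, adjusted p = 0.748) for Glul by edgeR with n = 3 per group. With library size alone they were −0.61 and −0.77. Without control replicate 3 the sign of Glul turned, to 0.12, and without control replicate 1 it was −0.34.

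By the test, 2 of the 9 genes were higher and 0 lower at adjusted p below 0.05 in edgeR, against 21.5% higher and 21.5% lower of all genes tested. The same 2 passed the cut-off of a log2 fold change above 1, which 10.4% of all genes tested passed in that direction and 13.8% passed in the other. Slc25a15 was below that cut-off with library size alone, with hepatocyte scaling and in FPKM, at 0.55, 0.64 and 0.54, and Asl was then the only member above it, though both were still called higher. No member was lower at an unadjusted p below 0.05 in edgeR. DESeq2 also called 2 members higher and 0 lower, against 18.5% and 20.8% of the 20293 genes that it tested. The median log2 fold change was 0.11 over the 9 genes and −0.04 over all genes tested. The TMM-scaled counts did not overlap, with ethanol above, for 2 of the 9 genes, against 28% of all genes tested. In FPKM, 6 of the 9 lay below the controls without overlap, beside the 57.4% of all genes.

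With all libraries in, the scaling of the libraries decided whether these 6 genes were called lower. Nags was also called lower with TMM scaling when ethanol replicate 3 was left out. With library size alone, Cps1, Otc, Nags, Slc25a13, Gls2 and Glul were all called lower, as were 48.3% of all genes tested, with 7.39% called higher, and the median over all genes tested moved from −0.04 to −0.71. With the libraries scaled to the hepatocyte markers, the same 6 genes were called lower, as were 42.7% of all genes, with 8.08% called higher, and the median over all genes was −0.63. Relative to that shift, Cps1 at −0.47 and Otc at −0.57 with library size alone were above the median gene, and Nags at −1.12 was below it. The plot of fold changes under 4 scalings shows that all 9 genes move together from one scaling to another and that Asl and Slc25a15 stay above 0.

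**Figure D2:**
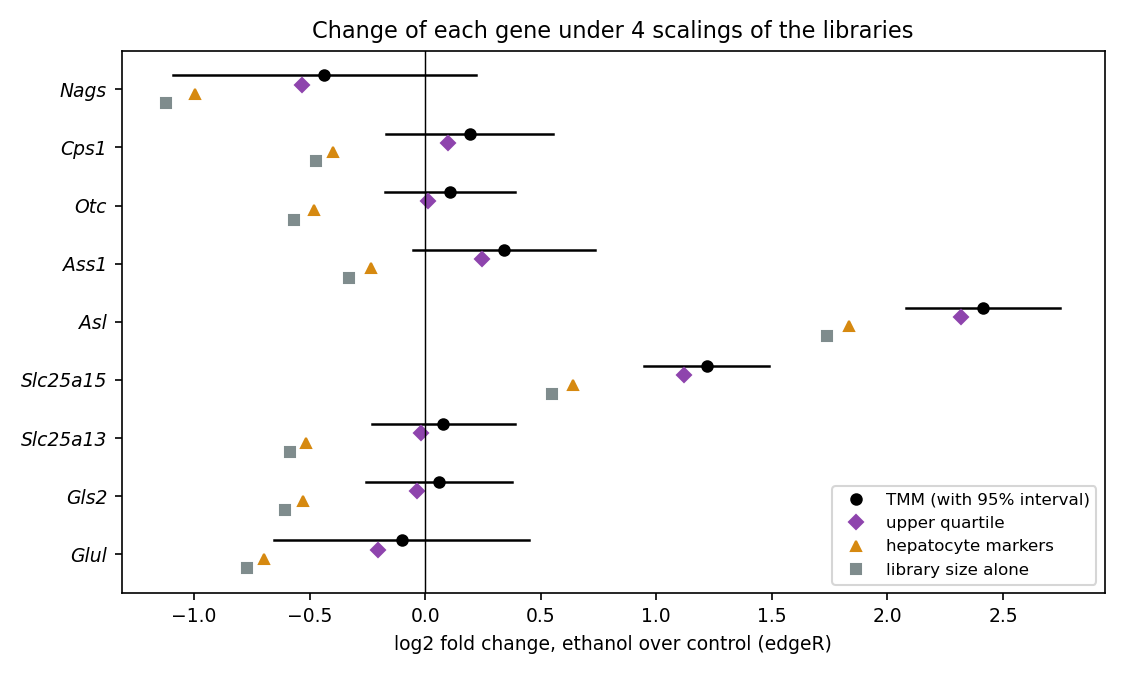
Log2 fold change of ethanol over control for each gene by edgeR, with TMM scaling in black (bar, 95% interval) and 3 other scalings of the libraries as coloured symbols. Asl is at 2.41 with TMM and 1.74 with library size alone, whereas Cps1 crosses from 0.19 to −0.47.

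Ratios of genes within a library do not depend on the scaling. For each periportal gene the FPKM was therefore divided by that of Glul in the same library. Asl to Glul was 0.790, 0.422 and 0.336 in controls and 2.60, 2.47 and 2.91 after ethanol, so Asl passed from below Glul to above it. The ratio was 5.50-fold higher. Slc25a15 to Glul was 0.484, 0.274 and 0.222 in controls and 0.657, 0.753 and 0.823 after ethanol, 2.40-fold higher. These 2 ratios did not overlap between the groups, against 17.5% of all genes whose ratio to Glul lay above the controls without overlap and 18.4% below. The exact permutation test, two-sided, gave p = 0.1 for each, the smallest that 3 against 3 libraries allow, and 0.4 after adjustment over the 8 ratios.

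The ratios of the other 6 genes to Glul overlapped with all libraries in. Their mean log2 differences were 0.41 for Ass1, 0.25 for Cps1, 0.15 for Otc, 0.12 for Slc25a13, 0.12 for Gls2 and −0.47 for Nags. For Nags the difference was −0.79 without ethanol replicate 3, where its ratio lay below the controls without overlap as did 24.9% of all genes, and −0.19 without control replicate 1. For each of the 8 genes control replicate 1 had the highest ratio of the 3 controls, and its Glul was the lowest. Without this library the ratios of 7 of the 8 genes to Glul, all but Nags, lay above the controls without overlap, but so did 41.7% of all genes. The log2 difference was then 0.84 for Ass1 and 0.64 for Cps1, and 2.82 for Asl. Without control replicate 3 it was 2.20 for Asl, 1.03 for Slc25a15, 0.0748 for Ass1 and −0.0476 for Cps1. In that fit it was −0.0736 for Otc, −0.13 for Slc25a13, −0.18 for Gls2 and −0.71 for Nags. The size of the shift away from Glul therefore depended on which control was left out. The plot of ratios by library shows control replicate 1 apart from the other controls.

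**Figure D3:**
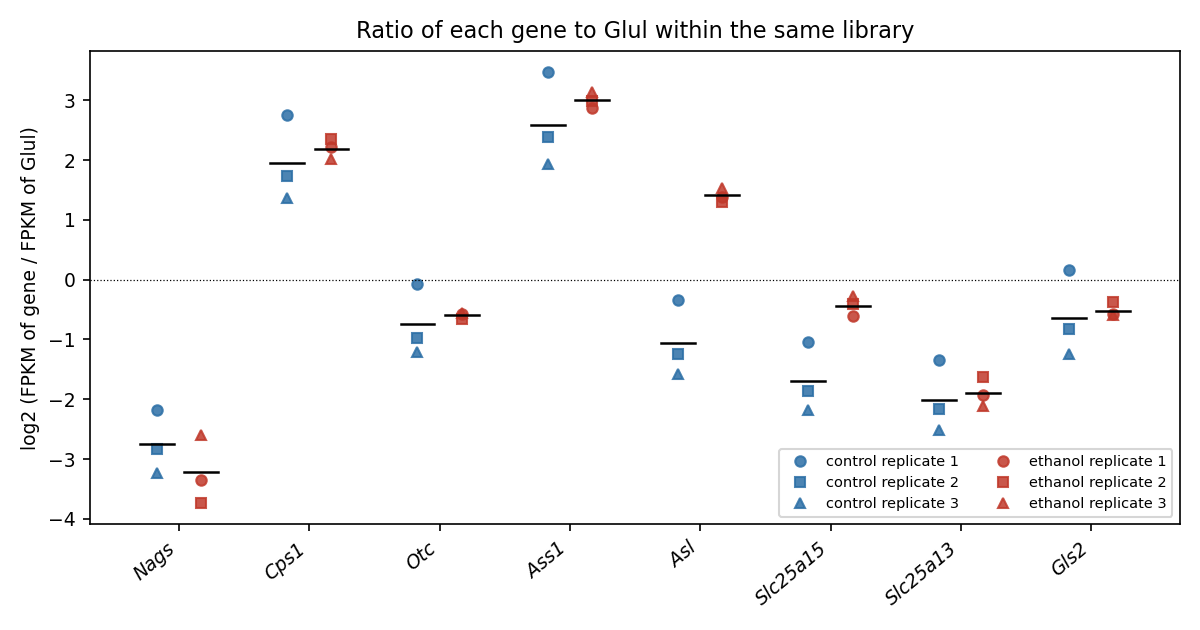
Log2 ratio of the FPKM of each gene to that of Glul in the same library, with 1 symbol for each library, controls in blue, ethanol in red and group means as black lines. Control replicate 1 (circle) is the highest control for every gene, and Asl and Slc25a15 do not overlap.

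The zone markers around these genes gave the following. Control replicate 1 was the lowest control for 11 of 19 pericentral markers other than Glul and the highest for 8 of 11 periportal markers that are no members, whereas over all genes tested it was the lowest for 31.0% and the highest for 42.1%. The part of this in the Glul result was not tested. In bulk liver, fewer cells of a zone and less RNA per cell cannot be told apart.

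Between the groups, the zone markers did not move as a block. Of 11 periportal markers tested, 4 were higher and 4 lower, with a median log2 fold change of −0.09, and of 19 pericentral markers, 5 were higher and 6 lower, with a median of 0.13 (edgeR, with 21.5% of all genes in each direction). With library size alone these counts were 2 higher and 6 lower for the periportal and 2 higher and 12 lower for the pericentral markers, against 7.39% higher and 48.3% lower of all genes. The 5 pericentral markers called higher became 2 without ethanol replicate 1 or control replicate 2, where 16.9 and 14.7% of all genes were called higher. They became 3 without ethanol replicate 2, control replicate 1 or control replicate 3, against 18.5, 15.8 and 14.5% of all genes. They became 7 without ethanol replicate 3, against 24.7%. The 4 periportal markers called lower became 2 without control replicate 1, where 14.3% of all genes were called lower. Without ethanol replicate 3, 5 periportal markers were higher and 4 lower, against 24.7% and 27.4% of all genes. Among periportal genes, Sds (serine dehydratase) rose by 3.69, Hsd17b13 rose by 1.53 and Etnppl rose by 0.97 on the log2 scale, while Aldh1b1 fell by 1.36. Among pericentral genes, the cytochrome P450 genes Cyp2a5 and Cyp2e1, the latter an ethanol-oxidising enzyme, rose by 3.01 and 1.45, while Lgr5 and Rnf43, both parts of Wnt signalling, fell by 3.61 and 1.90. Etnppl was not called with library size alone or in FPKM. Lgr5 was at 0.796 to 1.31 FPKM in controls and 0.0269 to 0.0875 after ethanol, and Cyp2e1 at 1920 to 2054 and 2900 to 3819, without overlap in either gene. Glul itself is a Wnt target of the same zone, and its log2 fold change of −0.10 stood between these.

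Ratios between successive steps of the cycle were chosen after the values of the genes had been seen, and those with Asl or Slc25a15 restate the higher values of these genes without any scaling. Asl to Ass1 was 0.0714, 0.0810 and 0.0881 in controls and 0.354, 0.311 and 0.331 after ethanol, 4.15-fold higher. Slc25a15 to Otc was 0.510, 0.537 and 0.511 in controls and 0.979, 1.19 and 1.21 after ethanol, 2.16-fold higher. Neither of these ratios overlapped between the groups. Of all genes, 13% had a ratio to Ass1 above the controls without overlap and 23.9% a ratio to Otc above them.

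Of the other step ratios, 4 overlapped between the groups. Otc to Cps1 was 0.141 to 0.169 in controls and 0.123 to 0.169 after ethanol, and Ass1 to Otc was 8.79 to 11.7 and 10.9 to 12.9. Nags to Cps1 and Slc25a13 to Ass1 overlapped as well, with mean log2 differences of −0.72 and −0.29. For Nags to Cps1, ethanol replicate 3 at 0.0413 lay above control replicate 1 at 0.0328, and leaving out either library removed the overlap. The mean log2 difference was −1.13 without ethanol replicate 3 and −0.84 without control replicate 1. The share of all genes without overlap was not counted with a library left out of this ratio. Gls2 to Cps1 differed without overlap but by little, at 0.165 to 0.169 in controls and 0.144 to 0.165 after ethanol, or 0.915 times the control ratio. A ratio to Cps1 below the controls without overlap was held by 31.4% of all genes. Over the 7 step ratios the smallest exact permutation p was 0.1, or 0.233 after adjustment.

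The summed FPKM of the 9 genes was 2257 to 2873 in controls and 2098 to 2123 after ethanol, below every control, as were most single genes. Within that sum Slc25a15 was 2.13 to 2.44% in controls and 3.66 to 4.27% after ethanol, and Cps1 was 28.3 to 29.5% in controls and 20.9 to 26.8% after ethanol. Ass1 was 42.0 to 48.7% in controls and 40.9 to 45.5% after ethanol, with overlap. The share of Glul was 4.401 to 11.01% in controls and 5.19 to 5.58% after ethanol, also with overlap. Shares sum to a fixed total, so a rise of Asl lowers the others by construction.

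**Figure D4:**
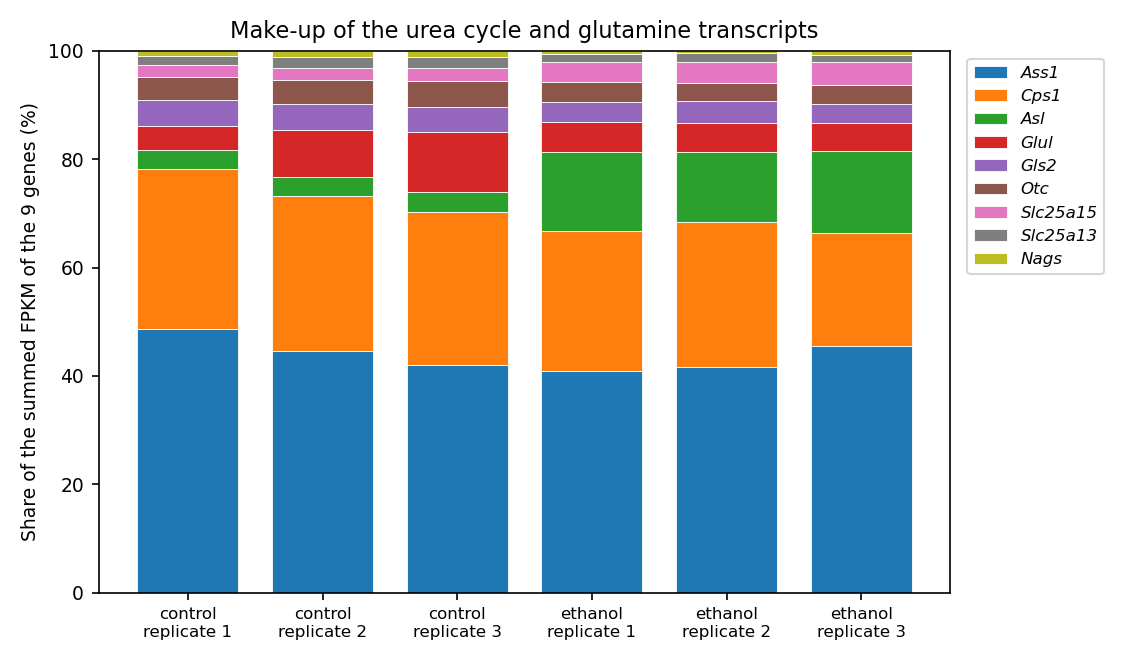
Share of each gene in the summed FPKM of the 9 genes, in percent, with 1 stacked bar for each library. Asl takes a larger part of every ethanol bar than of any control bar, and Cps1 a smaller part.

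Beyond the 9 genes, 48 genes of nitrogen handling were listed in 4 groups, 46 were in the table and 42 were tested. Of these, 15 were higher and 6 lower in edgeR, with 21.5% of all genes called in each direction and a median log2 fold change of 0.23. These counts too moved with the scaling, to 8 higher and 17 lower with library size alone, where 7.39% of all genes were called higher and 48.3% lower, and they were 22 higher and 7 lower of 43 tested without ethanol replicate 3. Among 11 genes that supply ammonia and amino nitrogen, 4 were higher and 2 lower, or 1 and 4 with library size alone, and 7 were higher and 2 lower without ethanol replicate 3, against 24.7% and 27.4% of all genes. The cytosolic aspartate aminotransferase Got1 had FPKM of 76.5, 55.8 and 56.0 in controls and 605, 654 and 384 after ethanol, and rose by 3.79 ± 0.24 (SE, n = 3 per group, adjusted p = 9.93e-05 in edgeR) on the log2 scale. The alanine aminotransferases Gpt and Gpt2 rose by 0.87 and 1.05, although Gpt was not called with library size alone, hepatocyte scaling or in FPKM, nor Gpt2 with library size alone.

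Car5a, the mitochondrial carbonic anhydrase that provides bicarbonate to carbamoyl phosphate synthetase, had FPKM of 65.9, 46.7 and 54.8 in controls and 17.1, 16.7 and 11.8 after ethanol. It fell by 1.21 ± 0.18 (SE, n = 3 per group, adjusted p = 0.00211 in edgeR) on the log2 scale. It stands beside Nags and Cps1 at the mitochondrial entry, where no member rose.

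Of 13 nitrogen transport genes tested, 8 were called higher and 0 lower, against 21.5% of all genes in each direction, with a median log2 fold change of 1.02, or 5 higher, 1 lower and a median of 0.34 with library size alone, against 7.39% and 48.3% of all genes. The neutral amino acid transporters Slc38a2 and Slc38a4 rose by 2.77 and 1.57, the cationic amino acid transporter Slc7a2, which carries arginine, by 2.44, and the mitochondrial glutamate carrier Slc25a22 by 2.12 on the log2 scale. The FPKM of Slc25a22 was 39.2 to 39.8 in controls and 82.0 to 125 after ethanol, and that of Slc7a2 was 34.5 to 50.0 and 73.9 to 172, without overlap. Among 7 genes of ornithine, arginine and proline metabolism 1 was higher, Prodh (proline dehydrogenase), with a log2 fold change of 0.61, whereas 0 were higher and 3 lower with library size alone, and 3 of 8 tested were higher and 0 lower without ethanol replicate 3, where 24.7% of all genes were higher and 27.4% lower. The call of Prodh was lost with hepatocyte scaling and without control replicate 2 or 3, at 0.54 and 0.58, and its sign turned with library size alone and in FPKM. Oat, Aldh18a1 and Agmat were at 0.61, −0.91 and 0.12 and did not pass the test. Oat was called higher in DESeq2 at 0.59 and without ethanol replicate 3 at 0.79, and its sign turned with library size alone, with hepatocyte scaling and in FPKM. Aldh18a1 was called lower with library size alone and with hepatocyte scaling, at −1.57 and −1.51, and Agmat was called lower with both and in FPKM.

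Of 11 genes of amino acid catabolism that releases ammonia, 2 were higher and 4 lower, against 21.5% of all genes in each direction, or 2 and 9 with library size alone, against 7.39% and 48.3%. Without ethanol replicate 3 there were 4 higher and 5 lower, against 24.7% and 27.4% of all genes. The serine dehydratase genes Sds and Sdsl rose by 3.69 and 2.17 on the log2 scale, with Sds at 66.4 to 85.9 FPKM in controls and 534 to 624 after ethanol. Amt, the aminomethyltransferase of the glycine cleavage system, fell by 1.58, and Amdhd1, of histidine breakdown, fell by 1.19. Amt was at 18.4 to 24.3 FPKM in controls and 3.62 to 4.91 after ethanol.

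Of 11 listed regulators of these genes, 5 were higher and 0 lower, against 21.5% of all genes in each direction, with a median log2 fold change of 0.69. Scaled by library size alone, 2 were higher and 3 lower, against 7.39% and 48.3% of all genes, with a median of 0.02. Without ethanol replicate 3 there were 8 higher and 1 lower, against 24.7% and 27.4% of all genes. The transcription factor genes Cebpb and Foxo1 rose by 3.30 and 1.75, the coactivator gene Crtc2 by 1.04 and Hnf4a by 0.69 on the log2 scale. Cebpb was at 51.2 to 60.8 FPKM in controls and 275 to 401 after ethanol. Cebpb, Foxo1, Got1, Car5a, Sds and Amt kept their calls in all 16 fits. Hnf4a was at 95.2 to 102 and 98.0 to 104 FPKM, and its call was lost with library size alone, with hepatocyte scaling and in FPKM. Crtc2 was not called with library size alone or with hepatocyte scaling. The plot of the wider nitrogen genes shows these changes beside each other.

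**Figure D5:**
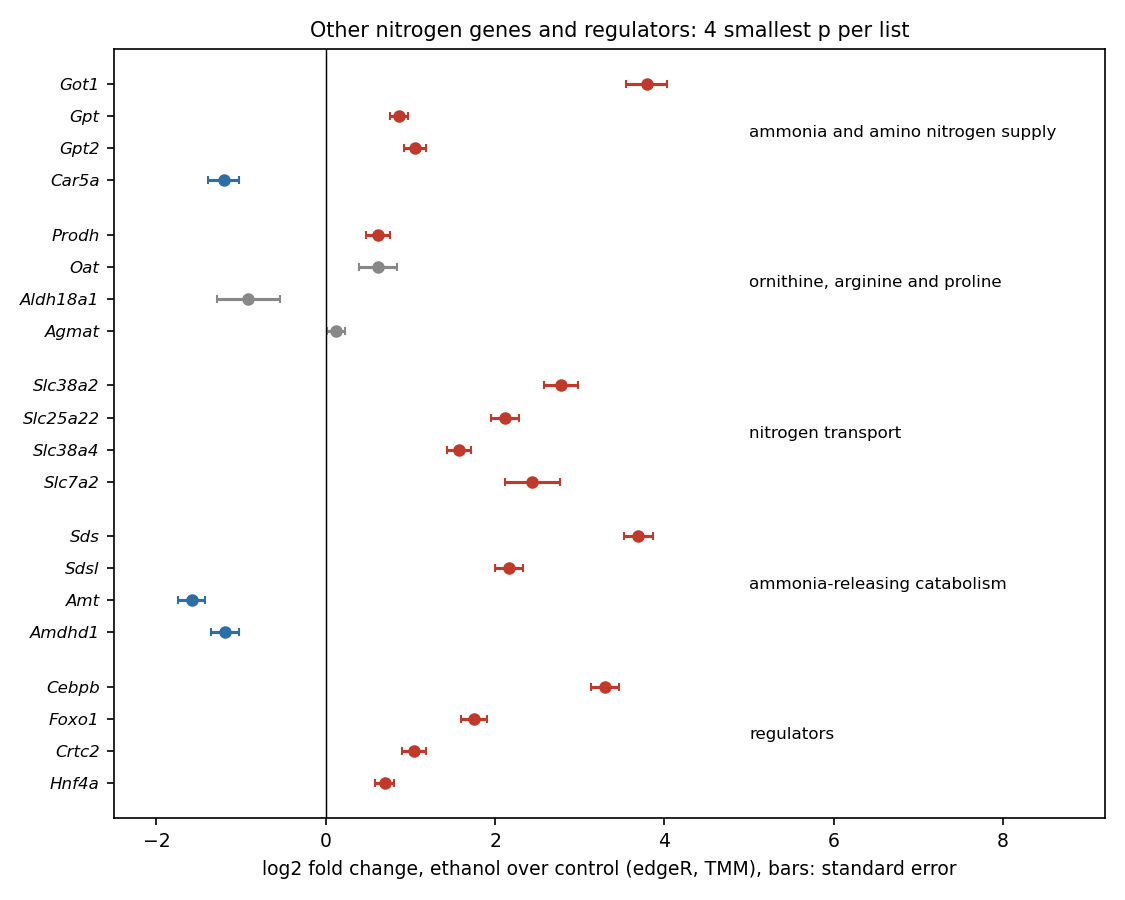
Log2 fold change of ethanol over control by edgeR with TMM scaling for the 4 genes with the smallest p in each list of nitrogen genes and regulators, bars giving the standard error. Red points were called higher and blue points lower at adjusted p below 0.05, and grey points did not pass, with Got1 highest at 3.79 and Amt lowest at −1.58.

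Markers of other cells in the liver were measured beside these changes. Of 8 Kupffer cell markers 2 were lower and 0 higher with TMM scaling, and 6 lower with library size alone (48.3% of all genes), with summed FPKM of 69.6 to 76.1 in controls and 37.0 to 47.4 after ethanol. Of 5 erythroid markers 4 were higher, all globin genes, at summed FPKM of 201 to 250 and 532 to 761. Of 4 neutrophil markers tested 4 were higher, at summed FPKM of 0.277 to 0.704 and 2.27 to 13.8, with Mpo at or near 0. Ethanol replicate 3 had the highest of these sums, and 3 of the 4 were called higher without it and with hepatocyte scaling. With TMM scaling, where 21.5% of all genes were called in each direction, endothelial markers were 2 higher and 3 lower of 8, stellate markers 2 and 2 of 8, cholangiocyte markers 1 and 0 of 5, T and NK cell markers 0 and 1 of 4, and B cell markers 0 and 1 of 4. With ethanol replicate 3 left out, 24.7% of all genes were called higher and 27.4% lower. The counts were then 2 and 1 of 6 for cholangiocyte, 0 and 2 of 4 for T and NK cell and 0 and 0 of 4 for B cell markers. The counts for the endothelial, stellate, Kupffer cell and erythroid markers were the same as with all libraries. Endothelial markers became 2 higher and 5 lower with library size alone and with hepatocyte scaling, and stellate markers 0 higher and 5 lower, against 7.39% of all genes higher and 48.3% lower with library size alone and 8.08% and 42.7% with hepatocyte scaling.

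In GENCODE M21 on GRCm38 the genes that rose were at chr5:130011258-130029247 on the minus strand for Asl and chr8:22375551-22398597 on the minus strand for Slc25a15, and Glul was at chr1:153899944-153909723 on the plus strand. Cps1 was at chr1:67123026-67231259, Otc at chrX:10252305-10321024, Ass1 at chr2:31470207-31520672, Nags at chr11:102145513-102149477 and Gls2 at chr10:128194457-128210004, all on the plus strand, and Slc25a13 at chr6:6041218-6217173 on the minus strand. Nags, Gls2 and Glul overlap other annotated genes, of which Spryd4 on the strand opposite Gls2 had the most counts, at 561 to 1722. Whether counting used strand is not given in the sources used here.

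Promoter sequence from RefSeq on GRCm38.p6 was given for 6 of the 9 genes, in 7 windows of the 250 bases before each start, with 2 starts for Slc25a15. Cps1, Asl and Gls2 had no entry. The E-box CACGTG, a palindrome and so read alike on both strands, was found in 3 of the 6 genes, and in 6.02% of 32851 promoter windows of the same length. The motif was picked after the windows had been read. The 3 places are shown because they lie in genes of different response, Slc25a15 higher and Ass1 and Slc25a13 not called. The capitals mark the motif, and each is given 5′ to 3′ on the strand of its gene, at chr2:31470222-31470251 (plus) for Ass1, chr6:6217281-6217310 (minus) for Slc25a13 and chr8:22398337-22398366 (minus) for Slc25a15, the Ass1 and Slc25a15 places within the GENCODE gene span.
Ass1: cgcgcccgtcccCACGTGtcccaggttcct
Slc25a13: cacagtctgagtCACGTGtcctggcccctc
Slc25a15: cgccctgccgcaCACGTGccgcggctccgg
The motif ended 31 bases before the start in Ass1, 120 in Slc25a13 and 72 in Slc25a15. CCAAT was found in Glul and Slc25a13, read along the strand of the gene, and on either strand in 33.8% of windows. The C/EBP-type letters TTGCNNAA (9.56% of windows), the cAMP response letters TGACGT (6.47%), the glucocorticoid receptor letters TGTTCT (16.1%) and TATAAA (12.4%) were searched on both strands and were not in these 7 windows. A match describes letters and is no binding site, and no match says only that these letters are not in the window.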

How the data were processed

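Total RNA from each liver was sequenced as paired reads of 150 bases. The authors deposited, for each gene and library, raw counts and FPKM values, and the aligner, counter, strand setting and FPKM software are not given in the sources used here. Their processing notes name GRCm38 and mm10, but 539 of 27049 shared gene IDs (1.99%), and 0 of the 9 members, had the table's start and end in GENCODE M21, so positions are from that annotation. A further 1 count column matched no library and was not used.

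From the deposited counts, edgeR 4.0.16 (R 4.3.3) was run with filterByExpr, TMM scaling and the quasi-likelihood test with prior count 0.125 on 3 libraries per group, with Benjamini-Hochberg adjustment over 16717 genes and a threshold of 0.05, as well as the study's cut-off of a log2 fold change of 1. The biological coefficient of variation was 0.299. Mice were separate per the labels. Ratios used the deposited FPKM without pseudocount, with an exact permutation test. The edgeR, DESeq2 and limma fits were tested on simulated data, whereas the ratios, shares, hepatocyte scaling and sequence searches were not. The simulation did not hold the difference in library make-up seen here, so it does not bear on the choice of scaling. Alternatives were library size, median ratio and upper quartile scaling, no filter, DESeq2 1.42.0, limma 3.58.1 on log2(FPKM + 1) and log2(FPKM + 0.1) for genes with mean FPKM of at least 1, the replicate number as a block, and each library left out. Scaling to the hepatocyte markers and the step ratios were added after seeing the data. The 9 genes were named in full, and a few further genes are not reported here. From each list of nitrogen genes, regulators and zone markers, the 4 non-members with the smallest unadjusted p were named, and cell type markers are given by counts. The members and lists were chosen with earlier results of these data known. Libraries of a group differed from each other by far more than counting error (chi-square divided by its degrees of freedom, 49.6 to 496).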

Additional observations from a re-analysis of the deposited data

How the results depend on the processing

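Asl and Slc25a15 were called higher in all 16 fits, at log2 fold changes of 1.73 to 2.503 and 0.54 to 1.26. The calls of the members Cps1, Gls2, Glul, Nags, Otc and Slc25a13 changed with the library scaling. Counts follow for library size alone, hepatocyte marker scaling, limma on log2(FPKM + 1) and limma on log2(FPKM + 0.1), in that order. The members called lower were 6, 6, 6 and 6. The wider nitrogen genes tested were 42, 42, 37 and 37, with 8, 9, 8 and 8 called higher and 17, 20, 18 and 18 lower. The pericentral markers tested were 19, 19, 16 and 16, with 2, 2, 2 and 2 called higher. Of all genes, 7.39, 8.08, 9.33 and 9.34% were called higher and 48.3, 42.7, 56.5 and 56.1% lower. Pericentral markers called lower were 12 with library size alone, 11 with hepatocyte marker scaling and 9 in each limma fit. Periportal markers called higher were 2 with library size alone and in both limma fits. In the same order of the 4 settings, signs turned for Cps1 at −0.47, −0.40, −0.47 and −0.47, for Otc at −0.57, −0.48, −0.56 and −0.57, for Ass1 at −0.33, −0.23, −0.31 and −0.31, for Slc25a13 at −0.58, −0.52, −0.59 and −0.60, for Gls2 at −0.61, −0.53, −0.60 and −0.60, for Agmat at −0.55, −0.47, −0.55 and −0.56, and for Oat at −0.0525, −0.000875, −0.0647 and −0.0649. Prodh turned at −0.0493 with library size alone and at −0.0575 and −0.0599 in the limma fits. With upper quartile scaling Slc25a13 was −0.0163 and Gls2 −0.0340. The cause was not tested, but the median gene moved with the scaling, to −0.71, −0.63, −0.44 and −0.55 in the 4 settings.

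Leaving out each library in turn gave 2 to 3 members called higher and 0 to 1 lower. Periportal markers called lower were 2 to 4, with 2 without control replicate 1, and pericentral markers called higher were 2 to 7. Over the same fits, 14.5 to 24.7% of all genes were called higher and 13.5 to 27.4% lower. The log2 fold change ran from −0.0303 to 0.19 for Gls2, from −0.0112 to 0.20 for Slc25a13 and from −0.34 to 0.12 for Glul, turning without control replicate 3 for Gls2 and Glul and without ethanol replicate 2 for Slc25a13. The cause was not tested. The log2 difference of the ratio to Glul ran from 2.20 to 2.82 for Asl and from 1.03 to 1.59 for Slc25a15, and crossed 0 for Cps1 (−0.0476 to 0.64) and Otc (−0.0736 to 0.49), among others.

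Libraries of equal replicate number showed no sign of pairing, with correlations of their deviations from the group means of −0.03, −0.02 and −0.02. Such correlations cannot exclude a pairing with 3 libraries in each group. The replicate block gave 3 pericentral markers higher and left 2 members higher and 0 lower. Over the table it gave 2890 genes higher and 2886 lower, against 3598 and 3591 without it. With 3 libraries in each group no exact permutation p of a ratio can go below 0.1.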
